A study of Mus musculus with 9 samples.

Results

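The genes described here are those of the chemokines and their receptors in mouse organoids of normal lung and of small cell lung cancer. They were taken by symbol: every row whose symbol was a Ccl, Cxcl, Ccr or Cxcr name with a number, or Cx3cl1, Cx3cr1, Xcl1, Xcr1 or Ackr1 to Ackr4. This gave 60 genes of 57010 in each of 2 tables, 38 of them ligands and 22 receptors. The study sequenced bulk RNA from 9 libraries in 3 groups of 3. The first group is of normal lung organoids and is called Normal, the second of small cell lung cancer organoids and is called SCLC, and the third is called GSK and is described in the labels as SCLC organoids given an agent named GSK. Organoids are cells grown into small tissue-like bodies in culture. The sources used here do not give the cell of origin, genotype, strain, sex or age of the source animals, any treatment that the groups share, or the identity, dose and duration of the agent. Nothing says whether the 3 libraries of a group came from separate cultures or animals, so the p-values below measure only the spread between these samples.

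Chemokines are small secreted proteins that guide leukocytes along concentration gradients, and they are named CC, CXC, XC or CX3C for the spacing of their first cysteines. They act on receptors that couple to inhibitory G proteins and trigger movement. Atypical receptors bind chemokines without that signal and take them up or carry them. In the lung, epithelial cells, macrophages, fibroblasts and endothelium make ligands, while most of the receptors sit on leukocytes. Many ligands bind several receptors, and many receptors several ligands.

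The values were the authors' 2 comparisons, SCLC against Normal and GSK against SCLC. Each gave, for a gene, the mean normalized count over the 6 libraries, a log2 fold change with its standard error, and p-values. No value of a single library was used here, so it cannot be said whether the groups overlap, and the spread between replicates is seen only in the standard error. Group means were computed from the mean and the fold change, carry no SD of their own, and are called implied means. The tables were scaled separately and share the SCLC libraries, so SCLC has an implied mean in each, and a high or low value of SCLC enters both comparisons. Summed over all genes, the implied means came to 44.7 M normalized counts (M, mega) for Normal and 42.0 M for SCLC in the first table, and to 45.3 M for SCLC and 31.9 M for GSK in the second. A gene was called higher or lower where the authors' adjusted p was under 0.05. Where the implied SCLC mean was under 0.12, SCLC was treated as without reads, and the fold was computed against a floor of 3 normalized counts over the 3 libraries of the group, a mean of 1, and is written as "at least". Such a fold was computed here and not by the authors, and only the p-value beside it is theirs. It takes the other group's mean without its error and is not a confidence limit. Genes with an SCLC mean between 0.12 and 1, such as Ccl5, Ccl9 and Ccr2, keep the authors' fold and its standard error, and such a fold cannot be set against an "at least" fold by size. A gene counted as detected in a group at an implied mean of 10 or more.

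Markers of cell types were read before the chemokines, because receptors of this family sit mostly on leukocytes. In SCLC all 6 neuroendocrine markers were higher than in Normal. Ptprc, which encodes the leukocyte surface protein CD45, had an implied mean of 144 in Normal, of 0.0812 in SCLC in the first table and of 12562 in GSK, so SCLC was without reads of it. Of 10 macrophage markers, all 10 were higher in GSK than in SCLC, and their summed implied mean was 115118 in Normal, 164 in SCLC in the second table and 118115 in GSK. Summed neutrophil markers stood at 515 in Normal, 19.1 in SCLC and 29721 in GSK, with 5 of 7 higher in GSK, and Elane and Retnlg not passing. The 7 T and NK cell markers tested were all higher in GSK, with sums of 1.36 in Normal, 6.73 in SCLC and 3094 in GSK. Of 5 dendritic cell markers, which include the receptor gene Xcr1, 4 were higher in GSK and 1, Zbtb46, was lower. Their sums were 172 in Normal, 741 in SCLC and 5573 in GSK, and in SCLC against Normal 2 of the 3 tested were higher and 0 lower. Endothelial and fibroblast markers were higher in GSK in 5 of 5 and 6 of 6 genes, with endothelial sums of 53.2 in SCLC and 15213 in GSK and fibroblast sums of 25.9 and 13947. The GSK libraries, which the labels describe as treated SCLC organoids, thus held transcripts of leukocytes, fibroblasts and endothelium that SCLC lacked or had at low levels. The sources used here do not say how these came to be in the libraries, so the material behind GSK is uncertain. Of 6 neuroendocrine markers, 4 were lower and 1 higher in GSK. In SCLC against Normal, 9 of 9 macrophage markers tested were lower, and 6 of 6 fibroblast markers, whose sum went from 9106 to 24.0. Epithelial lists were lower there as well, alveolar type II markers in 5 of 5 genes, with sums of 2641470 and 4543, and club cell markers in 3 of 3, with sums of 25089 and 200.1. In GSK against SCLC, 4 of 5 alveolar type II markers were higher, with sums of 4867 in SCLC and 6115 in GSK, and 2 of 3 club cell markers, with sums of 213 and 6298. Most of these marker lists move with the results of both comparisons below, and their part in each was not tested. In bulk RNA, fewer cells of a type and less RNA per cell cannot be told apart.

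**Figure D1:**
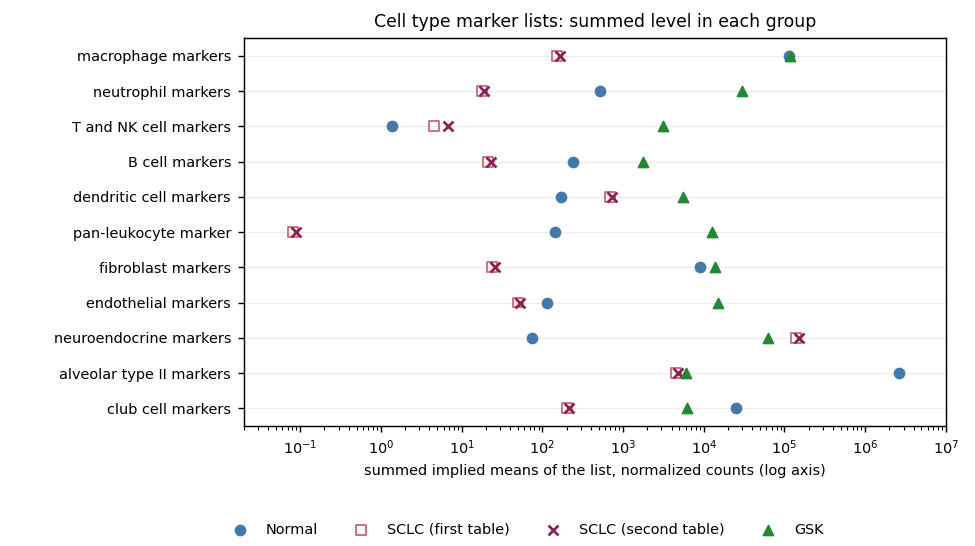
Summed implied means of each cell type marker list in Normal, in SCLC as implied by each of the 2 tables, and in GSK, in normalized counts on a log axis. Leukocyte lists other than that of dendritic cells, and fibroblast and endothelial lists, stand far higher in GSK than in SCLC (macrophage markers 118115 against 164). Dendritic cell markers stand at 5573 against 741, and the pan-leukocyte marker Ptprc is without reads in SCLC.

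Most chemokine genes were lower in SCLC than in Normal, and most were higher in GSK than in SCLC. In SCLC against Normal, 40 of the 60 genes had an adjusted p per the authors' deposited table: 27 were lower, 4 were higher and 9 did not pass. Among all 24719 genes tested there, 50.4% were called, 25.1% lower and 25.3% higher, so the share of chemokine genes that were lower, 67.5%, stood above the background and the share that were higher, 10%, below it. The 4 that rose were the receptors Cxcr4 and Ccr10 and the ligands Ccl25 and Ccl27a. The 9 that did not pass were Ackr3, Ackr4, Ccl8, Ccl17, Ccl27b, Ccl28, Ccr9, Cxcr5 and Cxcr6. For 8 more genes the adjusted value was missing (Ackr1, Ackr2, Ccl19, Ccl21a, Ccl21b, Ccr4, Cx3cr1 and Cxcr3), 3 had no p-value (Cxcl5, Cxcl10 and Cxcl12), and 9 had no reads in either group (Ccl1, Ccl24, Ccl26, Ccr3, Ccr6, Ccr8, Cxcr1, Xcl1 and Xcr1). A missing p-value beside reads may mark a gene that the authors' test flagged for an outlying count in a library. Of 28 ligands tested 22 were lower and 2 higher, and of 12 receptors tested 5 were lower and 2 higher. The median log2 fold change of the 40 was -5.43 per the authors' deposited table, or -4.30 with 11 genes at their bound against the floor, and that of all genes tested was 0.10.

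In GSK against SCLC, 59 of the 60 genes had an adjusted p per the authors' deposited table. Of these 49 were higher, 83.1%, and 0 were lower, also 0 at an unadjusted p under 0.05. Among all 28376 genes tested there, 37.1% were called, 21.6% higher and 15.5% lower. Among the ligands 30 of 37 were higher, and among the receptors 19 of 22. The 10 that did not pass were the ligands Ccl20, Ccl25, Ccl27a, Ccl27b, Ccl28, Cxcl5 and Cxcl15 and the receptors Ccr10, Ackr1 and Ackr4. Ccl26 had no reads in any group. The median log2 fold change of the 59 was 7.16 per the authors' deposited table, or 4.75 with 23 genes at their bound, against 0.24 for all genes tested. The split of all calls in this comparison moved with the scaling, from 58.2% higher as deposited to 81.6% when each group was scaled to the same sum and 70.2% when fold changes were centred on the median of genes whose mean reached 100. Each scaling raises every fold change of this comparison by the same amount, and all 49 called chemokine and receptor genes were already positive, so none could change sign. Of those not passing here, Ccl27a and Ccl27b turned positive under both and Ccl25 with equal sums.

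**Figure D2:**
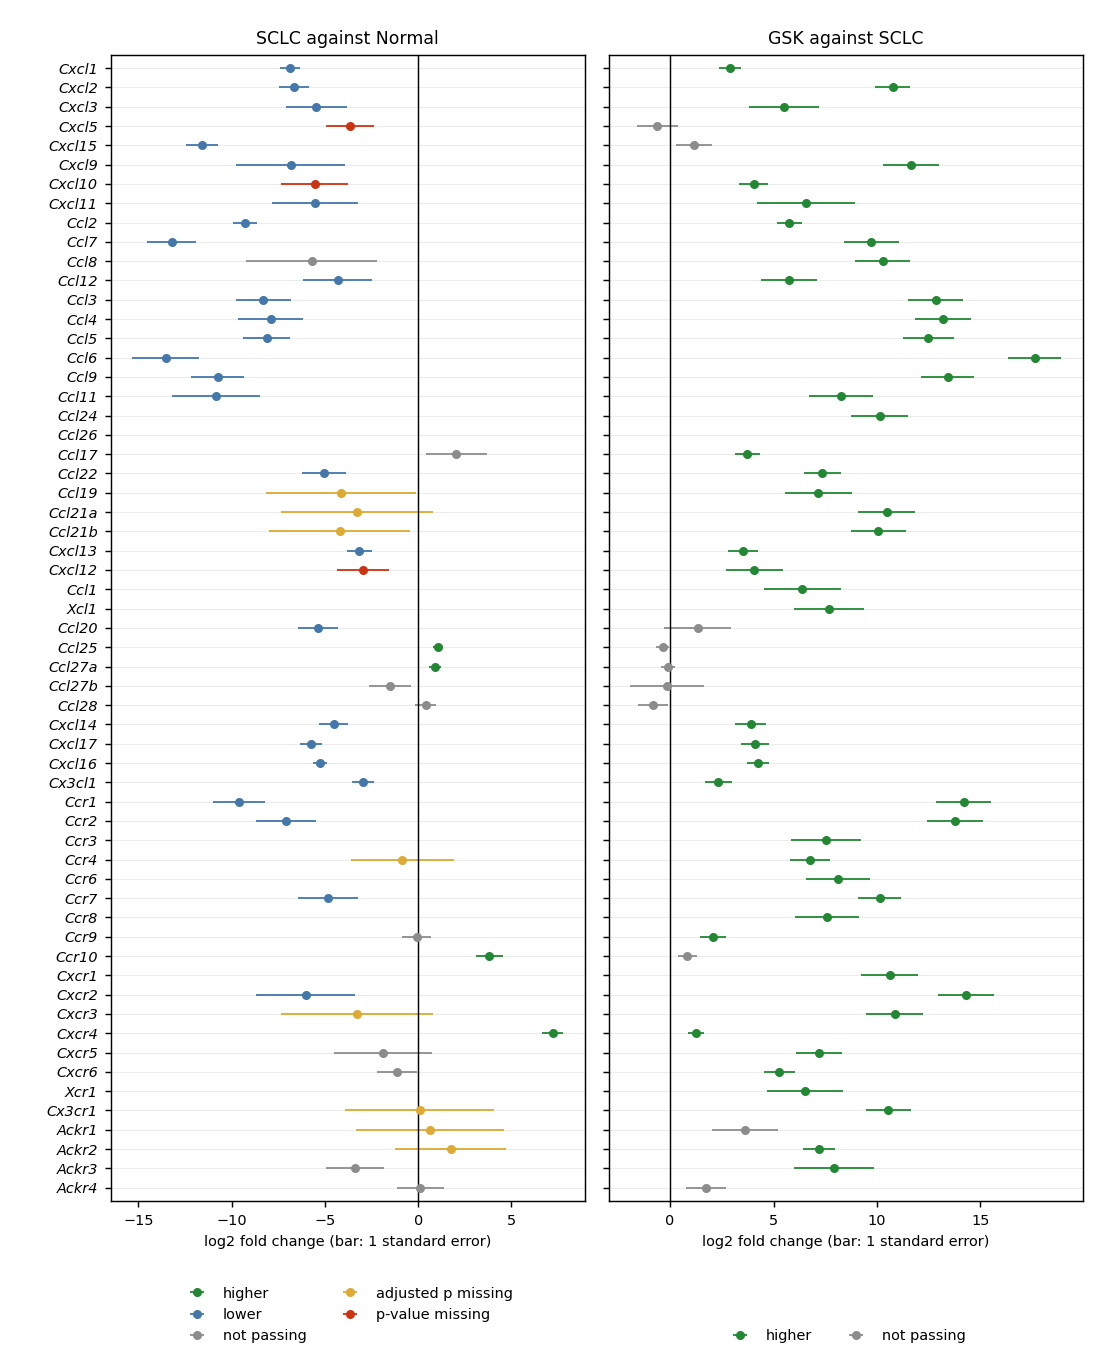
The authors' log2 fold changes with a bar of 1 standard error, SCLC against Normal on the left and GSK against SCLC on the right. Most points lie left of 0 in the left panel (27 lower, 4 higher) and right of 0 in the right panel (49 higher, 0 lower, 1 gene not drawn), and rows without a point had no reads in that comparison.

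The neutrophil attractants Cxcl1, Cxcl2, Cxcl3, Cxcl5 and Cxcl15 share a short motif before their first cysteines that gives them affinity for the receptors Cxcr1 and Cxcr2 of neutrophils, although the receptor of Cxcl15 is less certain. All 4 with an adjusted p were lower in SCLC than in Normal. Cxcl15, also called lungkine and made by lung epithelium, had the highest implied mean of all chemokines in Normal, 320290.0, against 103 in SCLC, a log2 fold change of -11.60 ± 0.84 (adjusted p = 1.02e-41) per the authors' deposited table. Cxcl1 fell from 2741 to 23.7 (-6.85 ± 0.53, adjusted p = 4.17e-36), Cxcl2 from 588 to 5.81 (-6.66 ± 0.79, adjusted p = 3.18e-16) and Cxcl3 from 293 to 6.61 (-5.47 ± 1.63, adjusted p = 0.00211) per the authors' deposited table. Cxcl5 stood at 1663 and 132, with a log2 fold change of -3.66 ± 1.30 and no p-value per the authors' deposited table. The alveolar type II and club cell markers, which fell with these genes, were given above.

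In GSK these genes did not move as 1 group. Cxcl2, a product of stimulated macrophages and epithelium, rose from 6.21 to 10736, a log2 fold change of 10.75 ± 0.85 (adjusted p = 4.51e-34) per the authors' deposited table, and was the second highest chemokine of the GSK libraries. Cxcl1 rose from 25.7 to 192 (2.90 ± 0.53, adjusted p = 6.06e-07) and Cxcl3 from 7.08 to 318 (5.49 ± 1.70, adjusted p = 0.00489) per the authors' deposited table. The Cxcl3 rise did not pass a test of an absolute log2 fold change above 1 (adjusted p = 0.0608). Cxcl15 stood at 111 and 251 (1.17 ± 0.86, adjusted p = 0.298) and Cxcl5 at 141 and 91.1 (-0.63 ± 0.99, adjusted p = 0.665) per the authors' deposited table, so neither passed. Beside them, the implied GSK mean of Cxcl1 was lower than its Normal mean and that of Cxcl2 was higher, although no test sets Normal against GSK. The standard error of Cxcl3 was 1.63 in SCLC against Normal and 1.70 in GSK against SCLC per the authors' deposited table. The medians over genes whose mean reached 100 with an implied mean of at least 1 in both groups were 0.302 and 0.326. Those genes were not matched to Cxcl3 in level, and its implied SCLC mean was under 10, so its spread cannot be called unusual from these values.

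The promoters of Cxcl1, Cxcl2 and Cxcl3 are shown because these genes lie in 1 run of neighbours and share a stretch of sequence. The windows come from RefSeq promoter sequence of build GRCm38.p6, not the build of the deposited alignments (GRCm39), hold 120 bases upstream of the annotated start on the plus strand, and lie at chr5:90891125-90891244 (Cxcl1), chr5:90903779-90903898 (Cxcl2) and chr5:90785981-90786100 (Cxcl3). Capitals mark matches to the NF-kB consensus, the motif bound by Rel family factors, on either strand.
Cxcl1: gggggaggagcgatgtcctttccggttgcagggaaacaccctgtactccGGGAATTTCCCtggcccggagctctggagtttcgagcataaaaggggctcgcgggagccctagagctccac
Cxcl2: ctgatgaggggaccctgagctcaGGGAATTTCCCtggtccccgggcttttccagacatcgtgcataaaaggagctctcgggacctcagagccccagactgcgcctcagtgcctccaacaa
Cxcl3: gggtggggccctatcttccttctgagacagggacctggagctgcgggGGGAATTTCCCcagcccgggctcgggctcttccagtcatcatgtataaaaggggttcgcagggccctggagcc
The same 11 letters, GGGAATTTCCC, stand in all 3 windows, where 2 matches on opposite strands overlap. Their first base lies 71, 97 and 73 bases before the start. In the 250 bases upstream of the start, a match on either strand was found in 7.25% of 32851 mouse promoters and in 11 of 52 promoters of the 45 chemokine and receptor genes (of 60) that the RefSeq table held: Ackr2, Ccl1, Ccl9, Ccl20, Ccr1, Ccr3, Ccr6, Cxcl1, Cxcl2, Cxcl3 and Cxcl10. A match is a run of letters and not evidence of binding.

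The receptors of these ligands were near 0 in SCLC. Cxcr2 had an implied mean of 5.29 in Normal, was without reads in SCLC (at least 5.29-fold lower, adjusted p = 0.0459 per the authors' deposited table) and reached 1753 in GSK, at least 1753-fold higher (adjusted p = 7.06e-24) per the authors' deposited table. The SCLC call of Cxcr2 was lost when p-values were adjusted over every gene with a p-value (adjusted p = 0.0623), and in a test of an absolute log2 fold change above 1 (adjusted p = 0.187). Cxcr1 had no reads in Normal or SCLC and stood at 138 in GSK (at least 138-fold higher, adjusted p = 3.97e-13 per the authors' deposited table). In GSK the neutrophil markers S100a8 and S100a9 stood at implied means of 6788 and 13346 beside these receptors. In Normal, where Cxcr1 had no reads and Cxcr2 stood at 5.29, the 2 markers stood at 431 and 16.0.

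Cxcl9, Cxcl10 and Cxcl11 are induced by interferon and attract activated T cells and NK cells through Cxcr3. All 3 rose in GSK, and the 2 with an adjusted p were lower in SCLC. Cxcl10 had implied means of 1424 in Normal, 30.3 in SCLC and 534 in GSK, with log2 fold changes of -5.56 ± 1.78 without a p-value in the first comparison and 4.04 ± 0.69 (adjusted p = 4.96e-08) in the second per the authors' deposited table. Cxcl9 stood at 9.19 in Normal, was without reads in SCLC (at least 9.19-fold lower, adjusted p = 0.04) and was at least 280.1-fold higher in GSK (adjusted p = 5.37e-16) per the authors' deposited table. Its SCLC call ended when p-values were adjusted over every gene with a p-value (adjusted p = 0.0543), and in a test of an absolute log2 fold change above 1 (adjusted p = 0.155). Cxcl11, at 3.64 in Normal and 8.21 in GSK, was at least 3.64-fold lower in SCLC (adjusted p = 0.0347) and at least 8.21-fold higher in GSK (adjusted p = 0.0176) per the authors' deposited table, and did not reach 10 in any group. Neither Cxcl11 call passed a test of an absolute log2 fold change above 1 (adjusted p = 0.166 in SCLC and 0.121 in GSK). The receptor Cxcr3 stood at 0.683 in Normal, under the floor, and was at least 163-fold higher in GSK than in SCLC (adjusted p = 5.97e-14) per the authors' deposited table. The T and NK cell marker Cd8a stood at 650.5 in GSK beside it.

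The Cxcl10 promoter is shown because it was the one that held both motifs searched. The window of 220 bases upstream of the start (chr5:92348890-92349109, minus strand, GRCm38.p6, RefSeq) has capitals at a match to the interferon-stimulated response element, searched on both strands as GAAANNGAAA, and at NF-kB matches.
Cxcl10: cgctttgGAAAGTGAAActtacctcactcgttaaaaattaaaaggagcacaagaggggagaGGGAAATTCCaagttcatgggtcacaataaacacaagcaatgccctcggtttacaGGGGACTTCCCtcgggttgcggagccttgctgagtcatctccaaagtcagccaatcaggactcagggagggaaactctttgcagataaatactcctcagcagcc
The interferon element begins 213 bases before the start and NF-kB matches begin at 159 and 104 bases before it. The interferon element was found in 2.98% of all 32851 promoters and in those of Ccl19, Cxcl10 and Cxcl14. A list of 12 interferon signalling factors had 10 lower and 0 higher in SCLC, and 8 higher and 0 lower in GSK, per the authors' deposited table. Of all genes tested, 25.1% were lower and 25.3% higher in SCLC, and 21.6% higher and 15.5% lower in GSK. Irf7, a transcription factor of the interferon response, had a log2 fold change of -4.44 ± 0.69 in SCLC (adjusted p = 1.05e-09) and 4.0 ± 0.63 in GSK (adjusted p = 3.98e-09) per the authors' deposited table. Irf1, an activator of interferon genes, rose by 2.51 ± 0.43 in GSK (adjusted p = 6.33e-08) per the authors' deposited table.

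Ccl2, Ccl7, Ccl8 and Ccl12 draw monocytes, mainly through Ccr2, and mouse Ccl8 acts on Ccr8. In SCLC 3 of the 4 were lower, and in GSK all 4 were higher. Ccl2 was the second highest chemokine per length in Normal, with an implied mean of 3879.6, and fell to 6.16 in SCLC (-9.30 ± 0.64, adjusted p = 3e-46) per the authors' deposited table. In GSK it stood at 361, a rise over SCLC of 5.76 ± 0.60 (adjusted p = 2.14e-20) per the authors' deposited table, with an implied mean under that of Normal. Ccl7 went from 772 in Normal to no reads in SCLC (at least 772-fold lower, adjusted p = 2.42e-22) and 74.4 in GSK (at least 74.4-fold higher, adjusted p = 4.71e-12) per the authors' deposited table. The implied means of both genes therefore ran in the order Normal, GSK, SCLC from high to low, and those of the other 2 ran GSK, Normal, SCLC: Ccl8 stood at 4.2 in Normal and 109 in GSK, and Ccl12 at 7.92 and 23.7. Ccl8 did not pass in SCLC (adjusted p = 0.165) and was at least 109-fold higher in GSK (adjusted p = 2.28e-13) per the authors' deposited table. Ccl12 fell in SCLC (-4.32 ± 1.86, adjusted p = 0.0411) and rose in GSK (5.75 ± 1.38, adjusted p = 0.000179) per the authors' deposited table, and its SCLC call ended when p-values were adjusted over every gene with a p-value (adjusted p = 0.0557), and in a test of an absolute log2 fold change above 1 (adjusted p = 0.232).

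Ccr2, the receptor that brings monocytes out of the marrow, was the second highest receptor mean in GSK before correction for length. Its implied means were 21.7 in Normal, 0.159 in SCLC and 2381 in GSK, with log2 fold changes of -7.10 ± 1.61 (adjusted p = 3.66e-05) and 13.77 ± 1.35 (adjusted p = 2.19e-22) per the authors' deposited table. Ccl2 and Ccr2 were thus both under 10 in SCLC and both detected in Normal and GSK.

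Ccl3, Ccl4, Ccl5, Ccl6 and Ccl9 are products of macrophages and T cells that act on Ccr1 among other receptors, and Ccl6 and Ccl9 are rodent ligands of Ccr1. All 5 were lower in SCLC and all 5 higher in GSK, and their summed implied mean was 1367 in Normal, 0.745 in SCLC in the second table and 22834 in GSK. Ccl6 was the highest chemokine of the GSK libraries at 17725, against 968 in Normal and no reads in SCLC. It was at least 968-fold lower in SCLC (adjusted p = 5.65e-13) and at least 17725-fold higher in GSK (adjusted p = 3.6e-40) per the authors' deposited table. Ccl9 had means of 273, 0.158 and 1864, with log2 fold changes of -10.75 ± 1.41 (adjusted p = 1.81e-13) and 13.41 ± 1.28 (adjusted p = 1.31e-23) per the authors' deposited table. Ccl5, made by T cells, NK cells and macrophages, had 80.4, 0.287 and 1783, with -8.13 ± 1.27 (adjusted p = 9.61e-10) and 12.49 ± 1.23 (adjusted p = 2.37e-22) per the authors' deposited table. In all 3 the GSK mean was higher than the Normal mean. Ccl3 and Ccl4 were at 25.6 and 19.5 in Normal and without reads in SCLC, at least 25.6-fold and 19.5-fold lower. In GSK they were at least 642-fold and 819-fold higher. The adjusted p-values per the authors' deposited table were 1.15e-07 and 2.38e-05 in SCLC, and 3.19e-20 and 8.7e-21 in GSK.

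Ccr1, the receptor that these genes share in part, moved the same way. Found on monocytes, macrophages and neutrophils, it was the highest receptor per length in Normal, at an implied mean of 63.5. It was without reads in SCLC (at least 63.5-fold lower, adjusted p = 7.51e-11) and at least 1644-fold higher in GSK (adjusted p = 8.37e-25) per the authors' deposited table. The macrophage markers C1qb, Marco and Itgam, which like Ccr1 were without reads in SCLC, were at 1590, 1447 and 874 in GSK.

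The eotaxins Ccl11, Ccl24 and Ccl26 attract eosinophils through Ccr3, and the 2 with reads rose in GSK. Ccl11, a fibroblast and smooth muscle product, was at 151 in Normal, at least 151-fold lower in SCLC (adjusted p = 1.77e-05) and at least 26.9-fold higher in GSK (adjusted p = 8.96e-07) per the authors' deposited table. Ccl24 had no reads in Normal or SCLC and stood at 97.6 in GSK (at least 97.6-fold higher, adjusted p = 6.34e-12) per the authors' deposited table. Ccr3 likewise had reads in GSK alone, at 16.6 (at least 16.6-fold higher, adjusted p = 5.63e-05) per the authors' deposited table. Ccl11 and Ccl24 thus differed in Normal, where 1 was present and the other had no reads.

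Ligands of lymphocyte and dendritic cell homing all rose in GSK, 9 of 9. Ccl17 and Ccl22, dendritic cell products that bind Ccr4, differed in SCLC: Ccl22 fell from 34.3 to 1.03 (-5.06 ± 1.18, adjusted p = 5.95e-05), and Ccl17 stood at 1.51 and 6.19 (2.03 ± 1.63, adjusted p = 0.303), per the authors' deposited table. In GSK they reached 186 (7.36 ± 0.88, adjusted p = 2.35e-15) and 89.6 (3.74 ± 0.62, adjusted p = 2.17e-08) per the authors' deposited table. Ccr4 was at 1.5 in Normal, 0.932 in SCLC and 100.3 in GSK (6.75 ± 0.98, adjusted p = 9.45e-11) per the authors' deposited table. Ligands and receptor of this axis were therefore above 10 together in GSK and in no other group.

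Ccl19, Ccl21a and Ccl21b guide T cells and dendritic cells into lymph nodes through Ccr7. None reached 2 normalized counts in Normal, SCLC was without reads of all 3, and in GSK they stood at 12.6, 125 and 93.8 (adjusted p = 6.08e-05, 4.12e-13 and 9.95e-13 per the authors' deposited table). Ccl21a and Ccl21b are near copies, with 83.3% of the 31-base words of Ccl21b also in Ccl21a, so the split of reads between them is uncertain. Ccr7 was at 12.4 in Normal, 0.432 in SCLC and 531 in GSK, with log2 fold changes of -4.85 ± 1.62 (adjusted p = 0.00679) and 10.13 ± 1.06 (adjusted p = 4.7e-20) per the authors' deposited table, and its SCLC call was lost in a test of an absolute log2 fold change above 1 (adjusted p = 0.0658). The receptor was thus present in Normal at a low level without its ligands.

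Cxcl13, which draws B cells into follicles through Cxcr5, fell from 82.2 in Normal to 9.22 in SCLC (-3.16 ± 0.66, adjusted p = 6.55e-06) and rose to 117 in GSK (3.53 ± 0.72, adjusted p = 7.39e-06) per the authors' deposited table. Cxcr5 stood at 2.26 and 0.607 in Normal and SCLC and rose to 94.8 in GSK (7.21 ± 1.12, adjusted p = 1.59e-09) per the authors' deposited table. All 4 B cell markers were higher in GSK, with a summed implied mean of 1797 against 23.1 in SCLC. Ccl1 and its receptor Ccr8, and Xcl1 and its receptor Xcr1 of cross-presenting dendritic cells, had no reads in Normal or SCLC and low means in GSK. Those means were 7.4 for Ccl1, 17.1 for Ccr8, 18.2 for Xcl1 and 8.01 for Xcr1, and all 4 passed (adjusted p = 0.00267, 9.77e-06, 3.39e-05 and 0.00197 per the authors' deposited table).

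Cxcl12 holds cells that carry Cxcr4 in marrow, vessels and tissue, and Ackr3 takes it up without the migration signal. Cxcr4 was the chemokine or receptor gene with the largest rise in SCLC. It went from 9.68 in Normal to 1442 in SCLC, a log2 fold change of 7.22 ± 0.56 (adjusted p = 1.25e-36) per the authors' deposited table, or 149-fold. In GSK it stood at 3709, a further rise over SCLC of 1.25 ± 0.38 (adjusted p = 0.00383) per the authors' deposited table. This second rise did not pass a test of an absolute log2 fold change above 1 (adjusted p = 1). Cxcr4 was thus high in SCLC, whose libraries were without reads of Ptprc, and its rise in GSK came together with leukocyte markers, whose part was not tested.

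**Figure D3:**
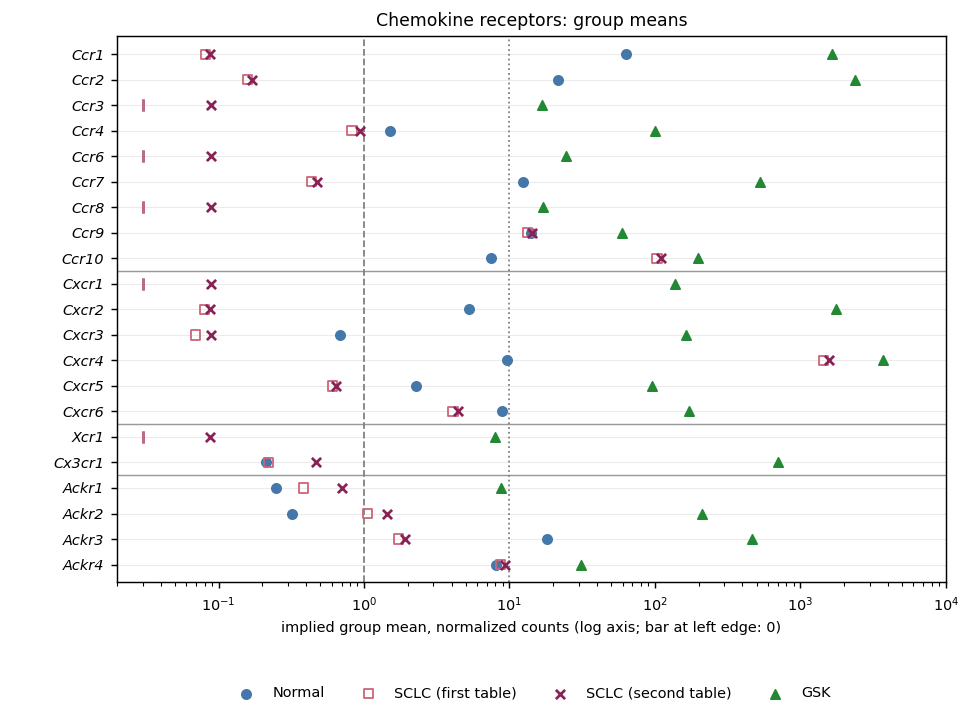
Implied means of receptor genes in Normal, SCLC (from each table) and GSK, in normalized counts on a log axis, with dashed and dotted lines at the floor of 1 and the detection level of 10. Cxcr4 (1442 in SCLC), Ccr10 (104) and Ccr9 (13.4) are the receptors at 10 or more in SCLC, while 20 of 22 are in GSK, 1 of which is not drawn; a bar at the left edge marks 0.

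Cxcl12 itself had implied means of 476 in Normal and 61.6 in SCLC, with a log2 fold change of -2.95 ± 1.39 and no p-value per the authors' deposited table. It rose to 1152 in GSK (4.07 ± 1.36, adjusted p = 0.01) per the authors' deposited table, and this call was lost in a test of an absolute log2 fold change above 1 (adjusted p = 0.152). Ackr3 stood at 18.1 in Normal and 1.72 in SCLC (-3.40 ± 1.55, adjusted p = 0.0559) per the authors' deposited table. It passed in SCLC once fold changes were centred on the median of genes whose mean reached 100 (adjusted p = 0.0427). In GSK it rose to 462 (7.92 ± 1.93, adjusted p = 0.000243) per the authors' deposited table, with a standard error wider than that of 99.8% of 13153 genes whose mean reached 100, with an implied mean of at least 1 in both groups. Those genes were not matched to Ackr3 in level.

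The promoter of Cxcr4 is given because its call in SCLC went against that of most of the family. Its 120 bases upstream of the start (chr1:128592300-128592419, minus strand, GRCm38.p6, RefSeq) hold no match to either motif.
Cxcr4: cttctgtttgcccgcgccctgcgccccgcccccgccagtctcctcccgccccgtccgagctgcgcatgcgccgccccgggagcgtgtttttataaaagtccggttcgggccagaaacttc
The absence of a match says only that these letters are not in the window. With NF-kB matches in 11 of the 45 chemokine and receptor genes searched, most of the family lacked one as well, so this does not set Cxcr4 apart.

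Ligands of skin and mucosal epithelium include the 2 ligand genes that rose in SCLC. Ccl27a, which acts on Ccr10, rose from 319.7 in Normal to 592 in SCLC (0.89 ± 0.31, adjusted p = 0.00918), and Ccl25, a ligand of Ccr9 in thymus and gut, from 254 to 522 (1.04 ± 0.26, adjusted p = 0.000274), per the authors' deposited table. In GSK they stood at 599 (-0.10 ± 0.34, adjusted p = 0.853) and 445 (-0.34 ± 0.32, adjusted p = 0.42) per the authors' deposited table, and neither passed. Their 95% intervals in GSK against SCLC ran from -0.76 to 0.56 for Ccl27a and from -0.96 to 0.27 for Ccl25 on the log2 scale, computed from the standard errors of the authors' deposited table. Neither rise in SCLC passed a test of an absolute log2 fold change above 1 (adjusted p = 1 for both). Ccl27b, at 6.67 in Normal and 2.32 in SCLC, shares 76.5% of its 31-base words with Ccl27a, so the split of reads between these copies is uncertain. Ccl28, the second ligand of Ccr10, stood at 20.8, 27.3 and 16.8 in Normal, SCLC and GSK and passed in neither comparison (adjusted p = 0.598 and 0.414 per the authors' deposited table).

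Ccr10, a receptor of skin-homing T cells and plasma cells, rose with its ligand in SCLC. Its implied means were 7.44 in Normal, 104 in SCLC and 197 in GSK, with log2 fold changes of 3.80 ± 0.72 (adjusted p = 6.24e-07) in SCLC and 0.83 ± 0.47 (adjusted p = 0.158) in GSK per the authors' deposited table. Scaled to equal sums, the second change passed (log2 fold change 1.34, adjusted p = 0.0144). Ccr9 stood at 14.1 in Normal and 13.4 in SCLC (-0.08 ± 0.78, adjusted p = 0.942) and rose to 59.8 in GSK (2.07 ± 0.63, adjusted p = 0.00449) per the authors' deposited table, a rise that did not pass a test of an absolute log2 fold change above 1 (adjusted p = 0.435). Ccl27a and Ccr10 were the 1 pair of the family in which both partners were higher in SCLC than in Normal.

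Other epithelial ligands did fall. Ccl20, which draws cells with Ccr6, fell from 129 to 3.08 in SCLC (-5.38 ± 1.08, adjusted p = 2.45e-06) and stood at 8.49 in GSK (1.33 ± 1.61, adjusted p = 0.561) per the authors' deposited table. Cxcl14 fell from 324 to 14.03 (-4.53 ± 0.77, adjusted p = 2.51e-08) and rose to 230.3 in GSK (3.90 ± 0.75, adjusted p = 2.26e-06) per the authors' deposited table. Cxcl17, a ligand of mucosal tissue, fell from 619 to 11.4 (-5.76 ± 0.60, adjusted p = 8.55e-21) and rose to 214 (4.09 ± 0.67, adjusted p = 1.49e-08) per the authors' deposited table. Most club cell and alveolar type II markers were likewise lower in SCLC and higher in GSK, with the sums given above. Of the 7 epithelial and barrier ligands, 2 were thus higher and 3 lower in SCLC, and 2 higher and 0 lower in GSK. Ccr6 had no reads in Normal or SCLC and stood at 24.5 in GSK (at least 24.5-fold higher, adjusted p = 1.13e-06 per the authors' deposited table), so this receptor rose in GSK and its ligand did not pass. The Ccl20 promoter, whose 120 bases (chr1:83116646-83116765, plus strand, GRCm38.p6, RefSeq) hold 1 NF-kB match in capitals, is shown as that of a gene with the motif that rose in neither comparison.
Ccl20: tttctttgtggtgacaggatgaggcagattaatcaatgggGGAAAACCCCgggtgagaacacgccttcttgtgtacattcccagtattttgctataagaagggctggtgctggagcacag
The match begins 80 bases before the start. In Cxcl1, Cxcl3 and Cxcl2, which rose in GSK, the matches begin 71, 73 and 97 bases before it. In Ccr6, which also rose in GSK, they begin at 80 and 81 bases, and any part of position was not tested.

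Cxcl16 and Cx3cl1 are made as membrane proteins that can hold cells in place or be shed, and epithelium and endothelium carry them. Both fell in SCLC and both rose in GSK. Cxcl16 went from 994 in Normal to 26.1 in SCLC (-5.25 ± 0.39, adjusted p = 2.76e-40) and to 538 in GSK (4.26 ± 0.52, adjusted p = 1.39e-14) per the authors' deposited table. Cx3cl1 went from 594 to 76.3 (-2.96 ± 0.58, adjusted p = 1.77e-06) and to 409 (2.33 ± 0.64, adjusted p = 0.00128) per the authors' deposited table, where the rise did not pass a test of an absolute log2 fold change above 1 (adjusted p = 0.216). Cxcr6, the receptor of Cxcl16 on T and NKT cells, stood at 8.91 and 4.08 in Normal and SCLC (-1.12 ± 1.07, adjusted p = 0.39) and rose to 171 in GSK (5.29 ± 0.77, adjusted p = 9.9e-11) per the authors' deposited table. Cx3cr1, the receptor of Cx3cl1 on monocytes and NK cells, stood under the floor in Normal and SCLC and rose to 701 in GSK (10.55 ± 1.09, adjusted p = 3.21e-20) per the authors' deposited table. Ligands of this class were thus detected in all 3 groups, and their receptors in GSK alone.

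**Figure D4:**
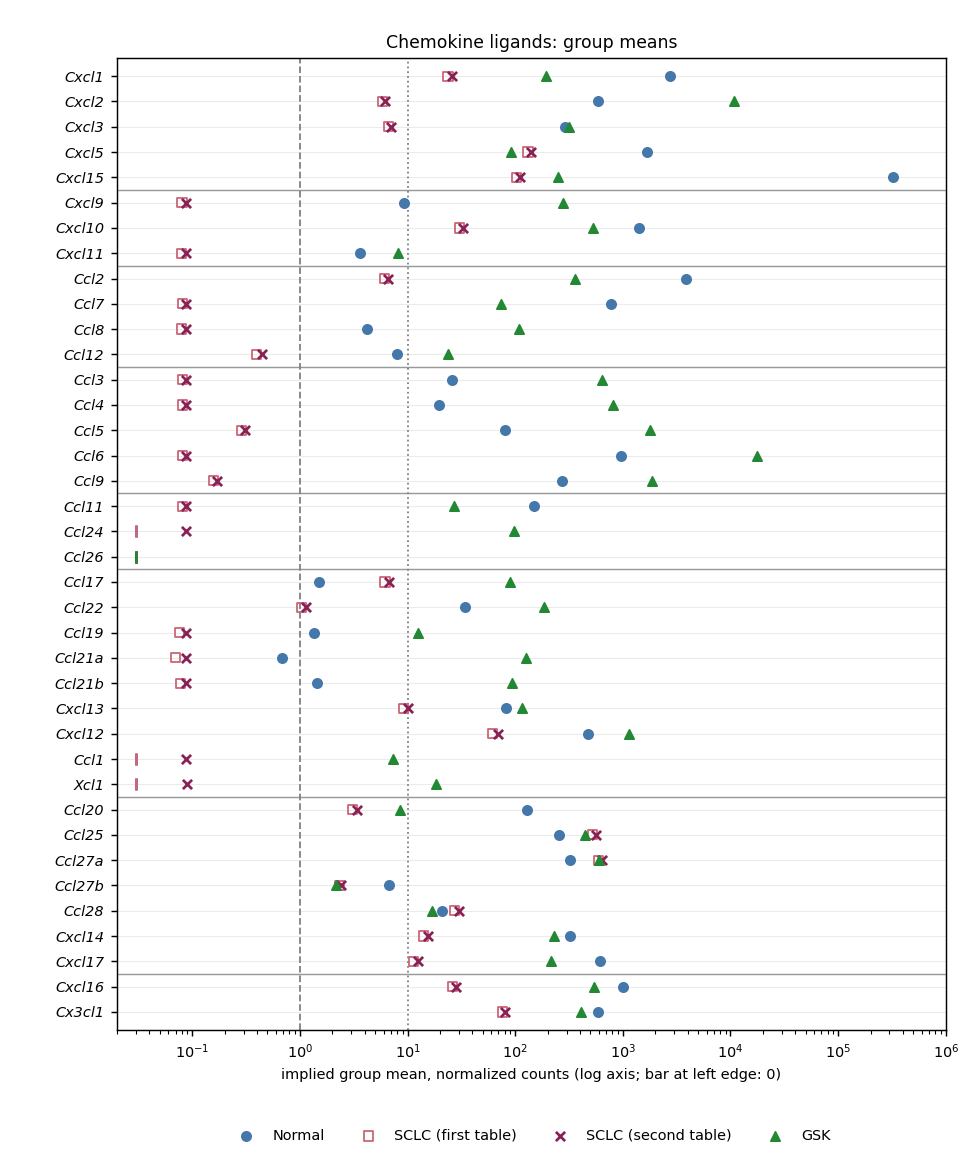
Implied mean of each ligand gene in Normal, SCLC (from each table) and GSK, in normalized counts on a log axis, grouped by role, with lines at the floor of 1 and the detection level of 10. SCLC lies lowest for most genes, Ccl25 and Ccl27a stand out at 522 and 592 in SCLC, and Ccl6 (17725) and Cxcl2 (10736) are highest in GSK; a bar at the left edge marks 0.

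The 4 atypical receptors take up or carry chemokines and limit their reach. Ackr2, which scavenges inflammatory CC ligands on lymphatic endothelium, stood at 0.317 in Normal and 1.06 in SCLC and rose to 209.8 in GSK (7.18 ± 0.77, adjusted p = 6.56e-19) per the authors' deposited table. Ackr4, a scavenger of Ccl19, Ccl21 and Ccl25, was at 8.03, 8.65 and 31.03 and passed in neither comparison (adjusted p = 0.953 and 0.154) per the authors' deposited table. Ackr1, which carries chemokines across vessel walls, stood under the floor in Normal and SCLC and at 8.73 in GSK (3.62 ± 1.58, adjusted p = 0.0575) per the authors' deposited table. It passed in GSK when each group was scaled to the same sum (adjusted p = 0.0271). With Ackr3, 2 of the 4 atypical receptors were higher in GSK. In SCLC against Normal 0 of the 2 tested passed, and 1, Ackr3, had an unadjusted p under 0.05 (p = 0.0286) per the authors' deposited table.

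Levels were compared between genes as implied means per kilobase of annotated exon. In Normal, Cxcl15 made up 93.4% of the summed ligand level per kilobase, followed by Ccl2 at 2.12%. In SCLC, Ccl27a led with 43.8% in the first table, and Cxcl5 and Ccl25 followed at 12.4% and 12.3%. In GSK, Ccl6 led with 42.9%, Cxcl2 followed with 22.6% and Ccl5 with 8.07%. The leading ligand thus differed in each group. Among receptors, Ccr1 led in Normal with 38.2%, and Cxcr4 led in SCLC with 92.3% and in GSK with 43.1%, where Ccr1 (12.2%), Cxcr2 (12.1%) and Ccr2 (7.41%) followed. The summed receptor level per kilobase was 58.6 in Normal, 865 in SCLC and 4757 in GSK. The summed ligand level was 161158 in Normal, 569 in SCLC and 23017 in GSK, and only in SCLC was the receptor sum the higher one. Without division by length the order in SCLC was the other way round, with 1662 for ligands and 1577 for receptors in the first table. No error can be given for these orders, which rest on implied means. Of the 38 ligands, 25 were detected in Normal, 12 in SCLC (13 in the second table) and 33 in GSK, and of the 22 receptors, 5, 3 and 20.

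Ligands were set beside the receptors they bind in 53 pairs, which share members, since a receptor such as Ackr2 or Ccr1 enters several. Both partners were detected in 9 pairs in Normal, in 4 in SCLC and in 48 in GSK. In Normal 5 of the 9 held Ccr1, with Ccl3, Ccl5, Ccl6, Ccl7 and Ccl9, and the others were Ccl2 and Ccl7 with Ccr2, Ccl25 with Ccr9 and Cxcl12 with Ackr3. The 4 of SCLC were Cxcl12 with Cxcr4, Ccl25 with Ccr9, and Ccl27a and Ccl28 with Ccr10, none of which belongs to the inflammatory ligands. Only the ligand was detected in 28 pairs in Normal, 8 in SCLC and 1 in GSK. Both partners were lower in SCLC than in Normal in 14 pairs and both higher in 1, and both were higher in GSK than in SCLC in 43. Bulk RNA does not say whether the partners came from the same cell.

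**Figure D5:**
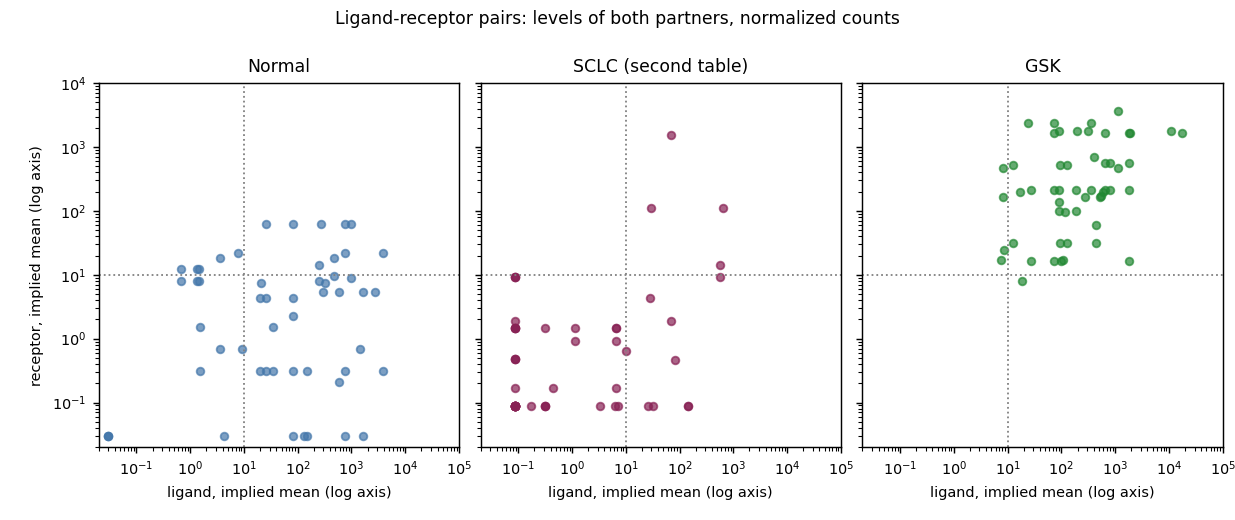
Each point is 1 of 53 ligand-receptor pairs, with the implied mean of the ligand on the horizontal axis and of the receptor on the vertical axis, in normalized counts on log axes, for Normal, SCLC and GSK. Dotted lines mark 10: the upper right field holds 9 pairs in Normal, 4 in SCLC and 48 in GSK, and most Normal points lie to the lower right, with the ligand detected and the receptor not.

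Many of these genes lie side by side on chromosomes, and neighbours mostly had the same call. On chromosome 11 the run Ccl2, Ccl7, Ccl11, Ccl12, Ccl8 and Ccl1 had 4 of 5 tested genes lower in SCLC and 6 of 6 higher in GSK. The run Ccl5, Ccl9, Ccl6, Ccl3 and Ccl4 on the same chromosome had 5 of 5 lower and 5 of 5 higher. On chromosome 5 the run Cxcl3, Cxcl15, Cxcl1 and Cxcl2 had 4 of 4 lower in SCLC and 3 of 4 higher in GSK, where Cxcl15 in the middle did not pass. On chromosome 8 Ccl22, Cx3cl1 and Ccl17 were 3 of 3 higher in GSK and 2 of 3 lower in SCLC. Among receptors, Cxcr6, Xcr1 and Ccr1 on chromosome 9 were 3 of 3 higher in GSK and 1 of 2 tested lower in SCLC. In GSK 83.1% of the family tested was higher, and in SCLC 67.5% was lower, or 78.6% of the ligands tested. Equal calls of neighbours in either comparison therefore say little about neighbours. Gene order was taken from the RefSeq annotation of another build, and genes of 1 run are near relatives as well as neighbours.

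Of 17 genes of the NF-kB pathway, which drives many inflammatory chemokines, 11 were lower and 2 higher in SCLC, and 10 were higher and 2 lower in GSK, per the authors' deposited table. The shares of all genes tested were 25.1% lower and 25.3% higher in SCLC, and 21.6% higher and 15.5% lower in GSK. Nfkbiz, a cofactor of NF-kB, had a log2 fold change of -3.51 ± 0.31 in SCLC (adjusted p = 1.31e-28) and 5.16 ± 0.43 in GSK (adjusted p = 1.68e-30), and Tnfaip3, a brake on the pathway that it induces, -2.68 ± 0.31 (adjusted p = 2.85e-17) and 6.05 ± 0.42 (adjusted p = 8.13e-44), per the authors' deposited table. Relb, a Rel family subunit, had -3.29 ± 0.51 (adjusted p = 7.6e-10) and 2.69 ± 0.59 (adjusted p = 3.32e-05) per the authors' deposited table. A list of 19 cytokine and receptor inputs also held interferon receptors and Il6 with its receptor, so it is not a list of NF-kB inputs alone. Of these 19, 14 were lower and 0 higher in SCLC, and 13 higher and 2 lower in GSK, per the authors' deposited table. The inflammatory cytokine Il1b stood at implied means of 117 in Normal, 0.435 in SCLC and 8226 in GSK, and Tnf at 725 in GSK and 0.975 in SCLC. Rises of these inputs were 14.07 ± 1.56 for Il1b (adjusted p = 7.34e-18) and 9.54 ± 0.90 for Tnf (adjusted p = 1.95e-24) per the authors' deposited table.

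Of 25 genes of receptor signalling, 12 were lower and 6 higher in SCLC, and 13 were higher and 3 lower in GSK, per the authors' deposited table. Over all genes tested, 25.1% were lower and 25.3% higher in SCLC, and 21.6% higher and 15.5% lower in GSK. The shares of this list that were higher in SCLC and lower in GSK were thus near those of all genes. The 4 that led in GSK were Dock2, Rgs1, Vav1 and Plcb2, which act in leukocytes and were under 1 in SCLC. Dock2, the exchange factor that turns chemokine signals into movement of lymphocytes, stood at 90.0 in Normal, 0.282 in SCLC and 3465 in GSK. Rgs1, a brake on G protein signals, stood at 1483 in GSK and was without reads in SCLC. Of 12 genes that cut chemokines or hold them on the cell surface, 11 were tested in each comparison, 11 of them lower in SCLC, and 6 higher and 1 lower in GSK, per the authors' deposited table. Dpp4, a protease that trims chemokines such as Cxcl12 and inactivates them, fell from 4472 in Normal to 78.5 in SCLC (-5.83 ± 0.36, adjusted p = 4.72e-57) per the authors' deposited table. The matrix protease Mmp9 fell by 7.06 ± 0.52 in SCLC (adjusted p = 8.22e-40) and rose by 8.06 ± 0.69 in GSK (adjusted p = 2.17e-29) per the authors' deposited table. The lists were set by function and not by how they moved, and they were chosen with earlier results of these data known.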

How the data were processed

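Libraries from a stranded mRNA kit were read as pairs of 150 bases, per the labels' protocols, and aligned with STAR 2.7.9a to GRCm39, per the submitters' processing notes. The sources used here name no counting tool, and per the file headers the columns of the authors' test carry the names that DESeq2 writes. In 2 deposited tables the authors gave each gene's mean signal over the 6 libraries of a comparison in normalized counts, a log2 fold change with its standard error, a score (their Wald statistic) and a p-value, unadjusted and adjusted by the Benjamini-Hochberg method.

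No column held a single library, so depth per library was not analysed here and no model was refitted. Implied group means came from the mean and the fold change with 3 libraries per group. The control of the second table was taken as SCLC because its implied means differed from those of SCLC in the first by a median log2 ratio of 0.109 with an SD of 0.0084 over 13634 genes whose mean reached 50 in both tables, against an SD of 2.02 for the other arm. Exon lengths and shared 31-base words came from GENCODE M21 (GRCm38), and promoters and gene order from RefSeq tables of GRCm38.p6.

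Genes named with values were members with an adjusted p in either table and an implied mean of at least 10 in a group, with their partners in 53 ligand-receptor pairs. Ackr1 and Ccl27b fell outside this rule and were named with their values in view. From 17 lists of 159 other genes, at most 4 per list were named by size of change, and any other was picked with its values in view. Of the members, 1 receptor gene is counted but not reported here. Members, pairs and lists were chosen with earlier results of these data known. Calculations used Python 3.11.15, pandas 2.3.3, numpy 2.4.6 and scipy 1.17.1, and the counting script was tested on simulated tables. Alternatives changed the threshold, the genes adjusted over, the scaling, the level filter and the size of change tested.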

Additional observations from a re-analysis of the deposited data

How the results depend on the processing

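No paired analysis was possible because the tables hold no values of single libraries, and leaving out each replicate in turn could not be run for the same reason. Over 7 alternatives, the count of chemokine and receptor genes lower in SCLC was 21 to 28 (27 as deposited) and that of genes higher in GSK 43 to 51 (49 as deposited), and none was lower in GSK. No called gene changed sign, but none could have. Both scalings shift all fold changes of a comparison alike, by less than any called change, and the other alternatives leave them as deposited. In GSK both shifts are upward, so no lower call could arise from them. Of the genes that did not pass, Ackr4 went from 0.11 to -0.075 when centred and Ccr9 from -0.080 to 0.0094 with equal sums in SCLC, and Ccl25, Ccl27a and Ccl27b turned positive in GSK. The count higher in SCLC was 4 as deposited and 2 in a test of an absolute log2 fold change above 1. By its construction that test drops Ccl27a, at 0.89, while Ccl25, at 1.04 ± 0.26, was tested and did not pass. That test left 2949 of all genes higher and 3391 lower in SCLC against Normal, where 6252 and 6201 were called as deposited, and 3161 and 563 in GSK against SCLC, where 6129 and 4404 were. In GSK against SCLC the split was 8738 higher and 1970 lower with equal sums and 7245 and 3076 when centred, and genes whose mean reached 100 had a median of -0.25 on the log2 scale. Where p-values were adjusted over every gene with a p-value, Ccl12, Cxcl9 and Cxcr2 were lost in SCLC. An alternative chosen after seeing the data, with p-values from the statistic where the authors gave none, called Cxcl10 (adjusted p = 0.00625) and Cxcl5 (adjusted p = 0.0151) lower in SCLC. A gene with reads but no p-value may have been flagged for an outlying count, and this alternative sets such a flag aside. The standard errors of Cxcl10 and Cxcl5 were wider than those of 99.7% and 99.0% of 12641 genes. Those genes had a mean of at least 100 and an implied mean of at least 1 in both groups. Depth per library is unknown, so no counting limit is given for genes listed at 0.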

Other observations

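Several genes outside the naming rule also encode chemoattractants or their receptors, and their values are given here. Of 14 such genes, 11 were lower and 1 higher in SCLC than in Normal, and 13 were higher and 1 lower in GSK than in SCLC, per the authors' deposited table. The shares of all genes tested were 25.1% lower and 25.3% higher in SCLC, and 21.6% higher and 15.5% lower in GSK. Cd74, which binds the cytokine Mif, had implied means of 3759 in Normal, 5.20 in SCLC and 15853 in GSK, with log2 fold changes of -9.50 ± 0.40 (adjusted p = 7.16e-125) and 11.45 ± 0.60 (adjusted p = 9.1e-77) per the authors' deposited table. The formyl peptide receptors Fpr1 and Fpr2 stood at 157 and 119 in Normal, were without reads in SCLC, and stood at 396 and 438 in GSK. C5ar1, the receptor of complement fragment C5a, stood at 76.3 in Normal, was without reads in SCLC and stood at 1377 in GSK. The exception was Mif itself, which rose in SCLC (2.95, adjusted p = 2.14e-15) and was lower in GSK (-1.12, adjusted p = 0.0163) per the authors' deposited table. Mif was outside the rule for named genes and was chosen after its values were seen. The platelet chemokine genes Pf4 and Ppbp, whose symbols lie outside the rule, stood at 266 and 6.11 in Normal, 1.74 and 0.336 in SCLC, and 127 and 136 in GSK, and were likewise chosen after their values were seen.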
